A study of Homo sapiens with 8 samples.

Results

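MEST and 34 other listed imprinted genes were followed across 8 stable lines of HEK293T, a human embryonic kidney cell line. The list holds 35 symbols, and its genes were found by matching the RefSeq transcript named for each probe of the array to these symbols. Probes were found for 34 of them among the 27777 genes or accessions of the array, and SLC22A18 was not analysed here. The 34 genes had 48 probes, and 12 genes had more than 1 probe.

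Each line was a single clone, picked after transfection and blasticidin selection, and each gave 1 array of Cy3-labeled RNA. The 4 constructs were carried in the same pcDNA6 plasmid backbone, with 2 clones for each. Empty vector (#1 and #2) carried no insert. TET1-CDwt (#2 and #5) carried the catalytic domain of TET1, an enzyme that oxidizes 5-methylcytosine. MBD-TET1-CDwt (#3 and #10) carried that domain joined to a methyl-CpG-binding domain taken from MBD2, and MBD-TET1-CDmut (#9 and #10) carried the same fusion with an inactive catalytic domain. As each group is 2 clones, p-values measure the spread between clones, and an effect of the construct rests on that spread. For a probe not well above background, it is a spread of dim signals. In RNA from whole cultures, fewer cells with a transcript and less of it per cell cannot be told apart. The study asked whether the targeted enzyme changes the expression of methylated genes. Here the question is put to genes listed as imprinted. Promoters or control regions of such genes can be methylated on a single parental allele in normal cells. The allele expressed is disputed for IGF2R and DLX5, and it depends on the isoform for GNAS, BLCAP, GRB10, DDC and INPP5F. All of them are counted here as imprinted genes.

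An imprinted gene is transcribed mainly from the copy inherited from a given parent. The choice is set in the germ line by DNA methylation at an imprinting control region, which is then kept through cell division by the maintenance methyltransferase DNMT1 and by KRAB zinc finger proteins such as ZFP57. Imprinted genes lie in clusters, and a cluster often holds a long noncoding RNA that is transcribed from the opposite parental copy to its protein-coding neighbors. MEST, PEG3, PEG10, PLAGL1, NNAT, NAP1L5, L3MBTL1, SNRPN and KCNQ1OT1 have promoters in regions methylated on the maternal copy, so that the paternal copy is the active copy. Many of these genes act in growth of the embryo and placenta. Cultured cell lines can gain or lose such methylation, and its state in these clones was not measured on the arrays.

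Promoter windows of 300 bases, from 250 bases before to 50 bases after a RefSeq transcription start (GRCh38.p14), were given for 22 of the 35 genes, 54 windows in all. They are shown because the methyl-CpG-binding domain recognizes methylated CpG, and the CpG sites in them are in capitals. The first pair are the windows of an upstream and a downstream start of MEST, with 22 CpG sites in each. The downstream promoter is the imprinted promoter of the gene. The windows of DIO3, NDN and SNRPN follow, with 28, 35 and 18 CpG sites.
MEST upstream, chr7:130486097-130486396, plus strand: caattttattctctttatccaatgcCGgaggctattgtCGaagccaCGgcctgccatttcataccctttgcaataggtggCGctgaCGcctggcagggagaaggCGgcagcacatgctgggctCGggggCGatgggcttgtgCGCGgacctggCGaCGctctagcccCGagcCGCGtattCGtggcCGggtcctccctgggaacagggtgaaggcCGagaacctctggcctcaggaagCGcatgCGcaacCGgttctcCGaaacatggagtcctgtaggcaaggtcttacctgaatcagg
MEST downstream, chr7:130491808-130492107, plus strand: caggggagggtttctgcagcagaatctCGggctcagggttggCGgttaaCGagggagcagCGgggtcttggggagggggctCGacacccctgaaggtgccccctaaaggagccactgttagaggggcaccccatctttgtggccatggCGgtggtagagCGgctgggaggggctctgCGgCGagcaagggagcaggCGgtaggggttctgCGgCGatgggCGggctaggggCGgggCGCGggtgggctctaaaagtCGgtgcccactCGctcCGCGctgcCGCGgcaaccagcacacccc
DIO3, chr14:101561245-101561544, plus strand: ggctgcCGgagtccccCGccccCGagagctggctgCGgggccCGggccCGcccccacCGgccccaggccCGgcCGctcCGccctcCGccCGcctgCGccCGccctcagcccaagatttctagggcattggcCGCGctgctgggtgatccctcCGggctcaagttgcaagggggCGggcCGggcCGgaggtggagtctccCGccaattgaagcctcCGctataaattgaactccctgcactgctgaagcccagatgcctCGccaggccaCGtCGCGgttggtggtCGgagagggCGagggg
NDN, chr15:23687256-23687555, minus strand: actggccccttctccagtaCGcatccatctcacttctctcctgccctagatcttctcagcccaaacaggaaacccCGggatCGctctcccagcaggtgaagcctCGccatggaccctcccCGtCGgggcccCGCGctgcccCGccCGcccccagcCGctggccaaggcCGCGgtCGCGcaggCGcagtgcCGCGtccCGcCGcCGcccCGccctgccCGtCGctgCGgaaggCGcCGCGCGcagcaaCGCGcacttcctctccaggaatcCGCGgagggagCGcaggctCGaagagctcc
SNRPN, chr15:24954737-24955036, plus strand: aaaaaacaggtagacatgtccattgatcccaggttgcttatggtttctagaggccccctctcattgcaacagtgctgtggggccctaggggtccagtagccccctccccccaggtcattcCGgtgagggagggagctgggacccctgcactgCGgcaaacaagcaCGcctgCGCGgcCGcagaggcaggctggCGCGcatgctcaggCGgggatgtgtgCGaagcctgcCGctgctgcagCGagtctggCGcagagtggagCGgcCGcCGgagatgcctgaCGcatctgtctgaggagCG

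Taking the CpG-richest window of each gene, the median was 29 CpG sites in the 22 imprinted genes and 16 in 27305 genes. At least 10 sites were present in 18 of 22 (81.8%) and in 58.5% of all genes. The exceptions were DDC with 3, H19 and RTL1 with 6, and MAGEL2 with 9. The letters TGCCGC, to which ZFP57 binds when methylated, were searched on both strands. They were in 20 of the 54 windows (37.0%) and in 16.7% of all 35116 windows, and windows of the same gene can overlap. The downstream MEST window above held 2 matches and the SNRPN window held 2. A match is a description of the letters, and nothing about binding was measured.

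Signals are given on the log2 scale as the processed intensity of a probe minus the 75th percentile of its array, so that 0 is the level of that percentile. Levels of different probes cannot be compared with each other, and differences are between arrays for the same probe. The scanner software marks a spot that is well above background, and 63.2% to 68.2% of probes carried this mark on an array. The lowest signal so marked lay between -6.01 and -5.51, and this value is called the floor of an array. The clones of empty vector and TET1-CDwt shared slide 1 and those of the MBD fusions shared slide 2, so that slide and construct cannot be told apart where a fusion is compared with empty vector, whereas the fusions are compared within a slide. Over 9137 probes that were well above background on no array, the median signal was 0.37 higher with MBD-TET1-CDwt than with empty vector, 0.35 higher with MBD-TET1-CDmut, and 0.03 higher with MBD-TET1-CDwt than with MBD-TET1-CDmut. The 10 HEK293T markers were well above background on all 8 arrays (NEFM was 2.13-fold lower with MBD-TET1-CDwt than with empty vector and 2.24-fold lower than with MBD-TET1-CDmut, through clone #3 with 0.32 against 2.29 to 3.23 on the other 7). Of 8 markers of blood, liver, fibroblast and endothelial cells, 2 (PTPRC of blood and COL1A1 of fibroblasts) were so on all 8 arrays and 5 on none. PTPRC was so at a single dim probe (-5.48 to -3.91). Another of its probes was marked only with empty vector, and the rest on no array. The fibroblast marker DCN was among those on none. The probes of TET1, MBD2 and the loading control ACTB differed by less than 2-fold, apart from a dim MBD2 probe that was 2.04-fold higher with TET1-CDwt than with empty vector, and where the TET1 and MBD2 probes lie relative to the transgenes is not known.

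MEST, a paternally expressed gene for a protein of the hydrolase family in the endoplasmic reticulum, was well above background in both MBD-TET1-CDwt clones and on no other array. Its probe (NM_002402) gave -7.94 and -8.17 in empty vector #1 and #2, -8.14 and -8.09 in TET1-CDwt #2 and #5, -4.85 and -5.13 in MBD-TET1-CDwt #3 and #10, and -7.70 and -7.70 in MBD-TET1-CDmut #9 and #10. Both MBD-TET1-CDwt arrays thus lay above the other 6, with a gap of more than 2 on the log2 scale. Before any scaling, the processed intensity was 12.1 in #3 and 9.36 in #10, close above the lowest intensities marked well above background on those arrays, 7.40 and 7.18. On the other 6 arrays it was between 1.44 and 1.87. Before background was subtracted, the median signal of the spot was 43.5 in #3 and 41.5 in #10, against 31 to 36 on the other 6 arrays. The local background was between 19.5 and 25 over the 8 arrays.
The mean of MEST with MBD-TET1-CDwt was 3.06 higher than with empty vector on the log2 scale (SE 0.18, 95% confidence interval 2.63 to 3.50, limma adjusted p = 0.00245). Within slide 2 it was 2.71 higher than with MBD-TET1-CDmut (SE 0.18, 95% confidence interval 2.27 to 3.14, limma adjusted p = 0.00496). For MEST, the SE, intervals and p-values rest mostly on dim signals, not on how expressed MEST varies between clones. Of the 8 signals behind this SE, 6 were not well above background, and these lay close together within each construct. As they are not well above background, the change in fold is only bounded: MEST was at least 1.90-fold higher with MBD-TET1-CDwt than with empty vector, at least 1.90-fold higher than with TET1-CDwt, and at least 1.45-fold higher than with MBD-TET1-CDmut, with dim signals raised to the floor. With the dim signals at the floor the difference from empty vector was 0.92 (limma adjusted p = 0.347). The study's own list of upregulated genes, chosen on these arrays, also holds MEST, so its call is not independent evidence.
With TET1-CDwt the difference of MEST from empty vector was -0.06 (95% confidence interval -0.50 to 0.37). With MBD-TET1-CDmut it was 0.36 (95% confidence interval -0.08 to 0.79), against a median of 0.35 over the probes that were well above background on no array. Under another background correction (normexp) the MEST difference between MBD-TET1-CDwt and empty vector turned to -1.02 (limma adjusted p = 0.476). That correction set dim probes on empty vector #2 at a median of -0.15, against -3.25 to -1.08 on the other 7 arrays. With limma fitted only to the 4 arrays of the groups compared, or with a trend and robust variance model, the difference stayed at 3.06 and the adjusted p was 0.0857 and 0.0996, so the call was lost. Across the other scalings tried (quantile and median) and with any clone left out, the difference was between 2.88 and 3.20 and passed the test.

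**Figure D1:**
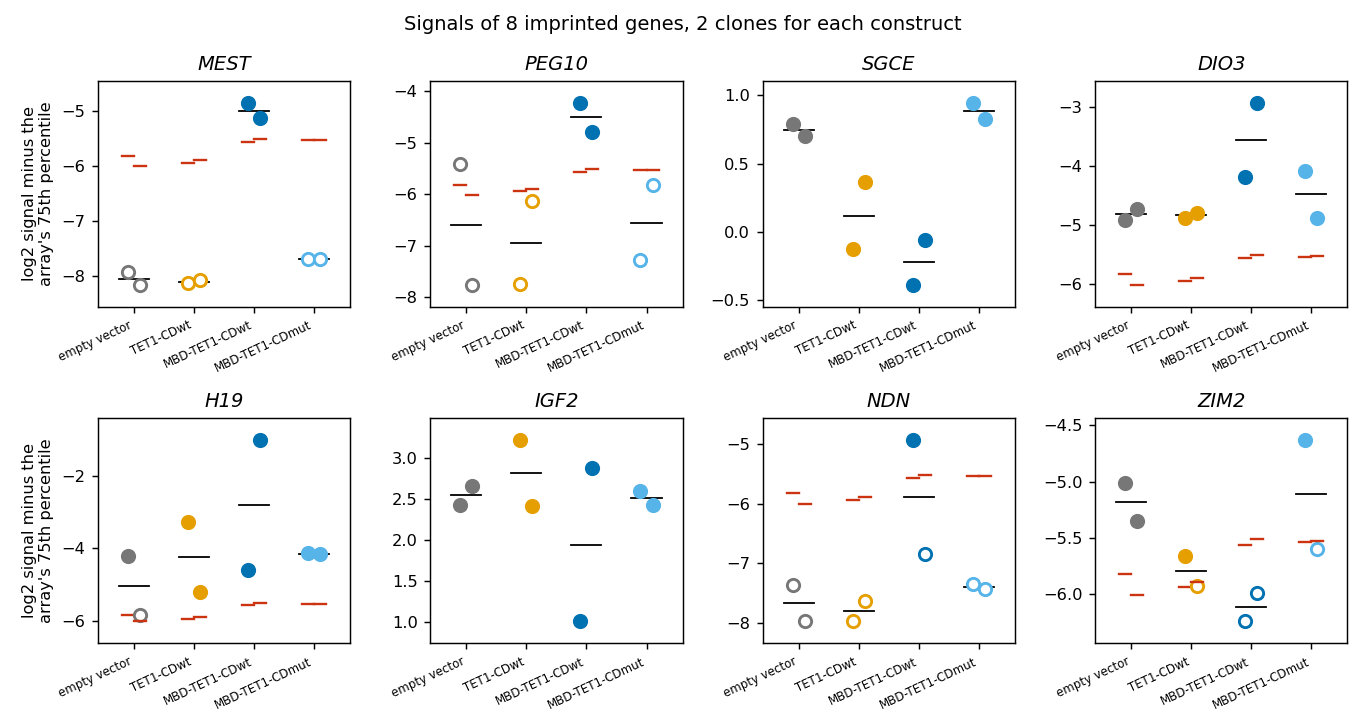
Signals (vertical axes, log2 minus the 75th percentile of the array) of 8 imprinted genes by construct. Circles are single arrays, 1 per clone, filled where the probe was well above background, black lines are group means, and red dashes are the floor of each array (below the axis for SGCE and IGF2). Both MBD-TET1-CDwt arrays of MEST and PEG10 are filled and lie above all open circles, whereas in H19 and NDN a single clone stands high.

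Across the 34 genes, MEST was the only gene that passed the test in any comparison, and it had entered the test only through MBD-TET1-CDwt, the group in which it is high. PEG10 also entered through that group alone, so that a difference in this direction was built into the choice of these 2 probes. Probes of PEG3, ZIM2 and DDC entered through empty vector alone, and that of ASCL2 through MBD-TET1-CDmut alone. The choice likewise favored a lower signal with the other constructs for these, but did not fix it. ZIM2 was 0.07 higher with MBD-TET1-CDmut, and DDC 0.03 higher with TET1-CDwt, than with empty vector. limma was fitted to 22530 probes, each of them well above background on both arrays of a construct, 39 of them for 30 of the imprinted genes. With MBD-TET1-CDwt against empty vector 1 of the 39 passed at an adjusted p under 0.05, where 0.115% of all probes did. Against MBD-TET1-CDmut it was again 1 of 39, with 0.102% of all probes. With TET1-CDwt and with MBD-TET1-CDmut against empty vector 0 imprinted probes passed, with 0.0% of all probes in each of these comparisons. At an unadjusted p under 0.05, limma gave 0 higher and 2 lower with TET1-CDwt (2.5% of all probes in either direction) and 0 higher and 1 lower with MBD-TET1-CDmut (2.68%). For MBD-TET1-CDwt the same counts were 2 higher and 2 lower against empty vector (6.6%), and 1 higher and 3 lower against MBD-TET1-CDmut (6.84%). These counts include probes that entered through their high group alone. MEST was among the higher with MBD-TET1-CDwt in both comparisons. Against empty vector, PEG3 was among the lower with TET1-CDwt and with MBD-TET1-CDmut, and ZIM2 among the lower with MBD-TET1-CDwt. SGCE, well above background on all 8 arrays, was among the lower with TET1-CDwt and with MBD-TET1-CDwt against empty vector. DIO3 was among the higher with MBD-TET1-CDwt against empty vector. The lower with MBD-TET1-CDwt against MBD-TET1-CDmut were SGCE, ZIM2 and ZDBF2.
The median log2 difference from empty vector over the 39 probes was -0.06 with MBD-TET1-CDwt, -0.02 with TET1-CDwt and 0.04 with MBD-TET1-CDmut. Over all probes tested these medians were -0.02, -0.03 and -0.02. Against MBD-TET1-CDmut, the median with MBD-TET1-CDwt was -0.06 for the imprinted probes and 0.01 for all. The imprinted probes as a group were thus near 0, and 18 of 39 (46.2%) were higher with MBD-TET1-CDwt than with empty vector, where 46.9% of all probes were.
By size, PEG10, DIO3 and H19 were at least 2-fold higher with MBD-TET1-CDwt than with empty vector, 3 genes of the 34, against 0.95% of all genes. Against MBD-TET1-CDmut, 3 genes were at least 2-fold higher (PEG10, H19 and KCNQ1OT1, with 1.01% of all genes) and 1 was lower (SGCE, with 0.839% of all genes). Against empty vector 0 were lower with MBD-TET1-CDwt (0.778% of all genes). With TET1-CDwt 0 were higher (0.277% of all genes) and 1, KCNQ1OT1, was lower (0.45% of all genes, through empty vector #2), and with MBD-TET1-CDmut 0 were higher (0.284% of all genes) and 0 lower (0.324% of all genes). No imprinted gene reached 5-fold in either direction with dim signals at the floor. Without the floor the MEST means differed 8.36-fold from empty vector and 6.52-fold from MBD-TET1-CDmut, on signals mostly not well above background. The study chose its list by a 5-fold cut-off. MEST is not in these counts, since its bound is under 2-fold. With the normexp correction the differences from empty vector of PEG10, DIO3 and H19 turned to -1.11, -0.83 and -0.48. In that comparison the median over the probes well above background on no array was -1.28 under normexp, lower than all 3. Both MBD-TET1-CDwt arrays lay above all other 6 for 4 of the 39 imprinted probes tested (MEST, PEG10, and a probe each of DLK1 and MEG3), as they did for 4.95% of all probes, and below all other 6 for 3 (ZIM2, ZDBF2 and a BLCAP probe), as for 5.54% of all probes.

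**Figure D2:**
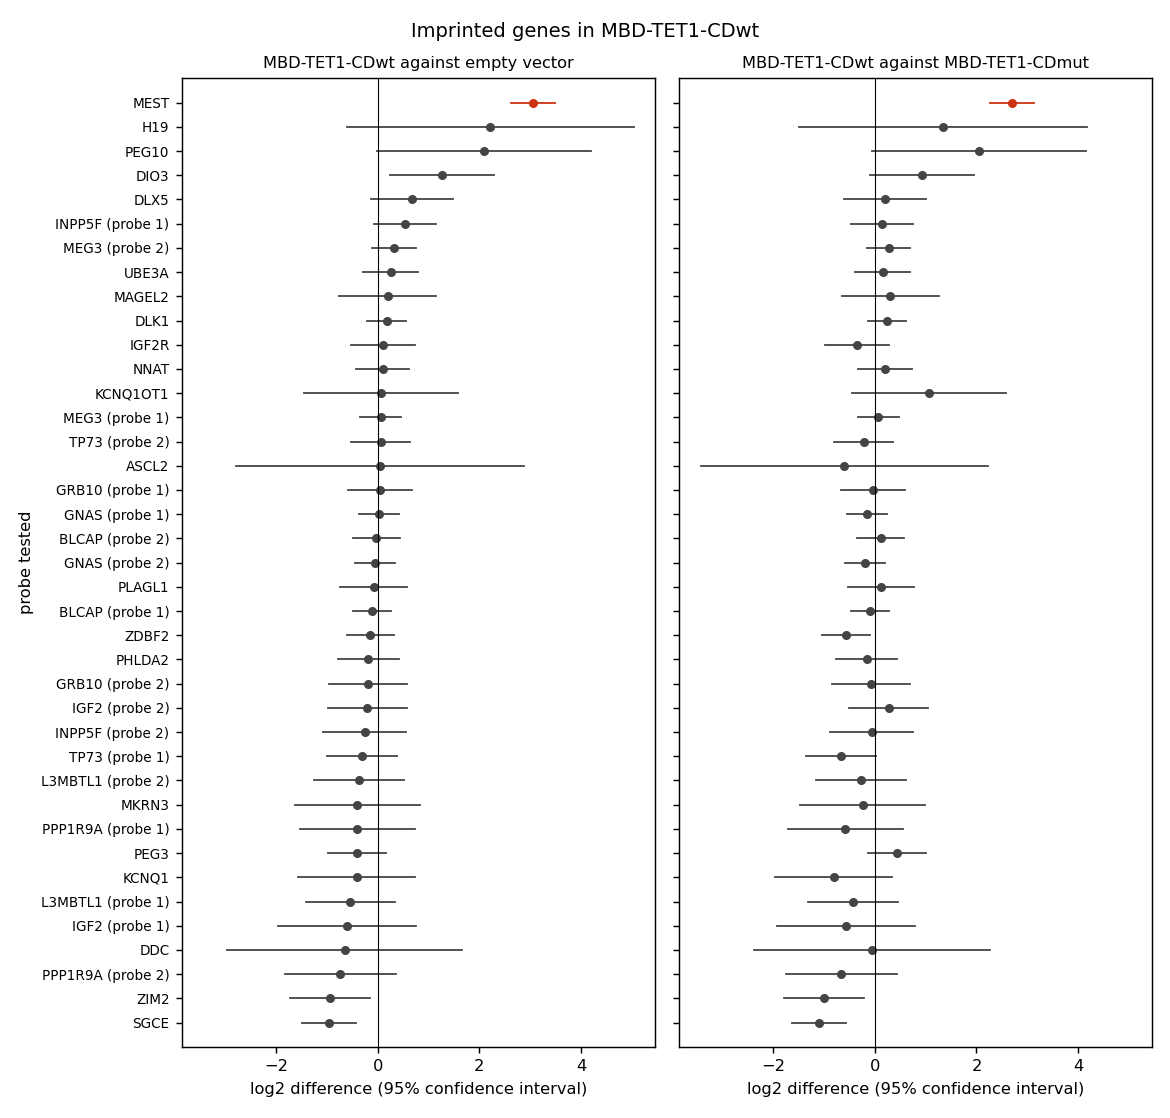
Log2 difference of MBD-TET1-CDwt from empty vector (left) and from MBD-TET1-CDmut (right) for the 39 imprinted probes tested, in the order of the left panel. Points are limma estimates over 2 arrays a group, lines are 95% confidence intervals, and red marks a call at an adjusted p under 0.05. MEST is the only red point in both panels, at 3.06 and 2.71, and H19, PEG10, ASCL2 and DDC have intervals wider than 4.

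PEG10, a paternally expressed gene derived from a retrotransposon and needed for the placenta, was the other gene well above background in both MBD-TET1-CDwt clones and on no other array. Its probe gave -5.42 and -7.75 with empty vector, -7.75 and -6.12 with TET1-CDwt, -4.22 and -4.78 with MBD-TET1-CDwt, and -7.28 and -5.82 with MBD-TET1-CDmut. Both MBD-TET1-CDwt clones lay above the other 6, whose dim signals varied widely between clones. PEG10 was at least 2.32-fold higher with MBD-TET1-CDwt than with empty vector, at least 2.66-fold higher than with TET1-CDwt, and at least 2.04-fold higher than with MBD-TET1-CDmut. The log2 differences were 2.09 from empty vector (SE 0.89, limma adjusted p = 0.761) and 2.05 from MBD-TET1-CDmut (SE 0.89, limma adjusted p = 0.739). Neither passed the test. Leaving out empty vector #2 gave 0.92 and leaving out empty vector #1 gave 3.25.
SGCE, which encodes the muscle and brain membrane protein epsilon-sarcoglycan, starts beside PEG10 and is transcribed in the opposite direction from the same imprinted region. It was well above background on every array and with MBD-TET1-CDwt the sign of its differences was opposite to that of PEG10. Its signals were 0.79 and 0.70 with empty vector, -0.13 and 0.36 with TET1-CDwt, -0.39 and -0.06 with MBD-TET1-CDwt, and 0.94 and 0.83 with MBD-TET1-CDmut. Both MBD-TET1-CDwt clones lay below all empty vector and MBD-TET1-CDmut clones, and MBD-TET1-CDwt #10 lay above TET1-CDwt #2. The difference was -0.97 from empty vector (SE 0.23, limma adjusted p = 0.447) and -1.11 from MBD-TET1-CDmut (SE 0.23, limma adjusted p = 0.353). With TET1-CDwt the SGCE difference from empty vector was -0.63 (SE 0.23) and was not called either.
Farther along the same cluster, the neuronal scaffold gene PPP1R9A and the homeobox gene DLX5 were well above background on all 8 arrays. DLX5 gave -0.96 and -0.77 with empty vector, -0.54 and -0.56 with TET1-CDwt, -0.74 and 0.36 with MBD-TET1-CDwt, and -0.41 and -0.36 with MBD-TET1-CDmut. Only MBD-TET1-CDwt #10 stood apart, and the difference from empty vector was 0.68 (SE 0.34, limma adjusted p = 0.806) with both clones and 0.13 without #10. PPP1R9A gave -2.45 and -2.00 with empty vector, -1.86 and -3.06 with TET1-CDwt, -3.10 and -2.16 with MBD-TET1-CDwt, and -2.31 and -1.78 with MBD-TET1-CDmut at its brighter probe. Its clones lay apart within TET1-CDwt and within MBD-TET1-CDwt, and clones #5 and #3 of those constructs were the lowest of the 8.

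H19, a maternally expressed noncoding RNA, and IGF2, the paternally expressed growth factor beside it, share an enhancer and a control region. Their signals varied between clones of the same construct. H19 gave -4.21 and -5.83 with empty vector, -3.26 and -5.21 with TET1-CDwt, -4.61 and -1.01 with MBD-TET1-CDwt, and -4.14 and -4.15 with MBD-TET1-CDmut, and only empty vector #2 was not well above background. MBD-TET1-CDwt #10 was the highest, whereas #3 lay below empty vector #1. The mean was 4.64-fold higher with MBD-TET1-CDwt than with empty vector, a log2 difference of 2.21 (SE 1.19, limma adjusted p = 0.826), and 0.41 without #10. Against MBD-TET1-CDmut it was 1.34 (SE 1.19, limma adjusted p = 0.882), and -0.46 without #10.
The brighter IGF2 probe gave 2.43 and 2.65 with empty vector, 3.22 and 2.42 with TET1-CDwt, 1.01 and 2.88 with MBD-TET1-CDwt, and 2.60 and 2.42 with MBD-TET1-CDmut. MBD-TET1-CDwt #3 was the lowest of the 8 and #10 was exceeded only by TET1-CDwt #2. Within MBD-TET1-CDwt, IGF2 and H19 were thus both higher in #10 than in #3. The difference of IGF2 from empty vector was -0.60 (SE 0.57, limma adjusted p = 0.909) and 0.33 without #3. The dimmer IGF2 probe differed by -0.20 (SE 0.33, limma adjusted p = 0.944). Other parts of growth factor signaling were steadier. IGF2R, the receptor that takes up IGF2 for breakdown, gave 0.89 and 0.83 with empty vector, 1.17 and 0.81 with TET1-CDwt, 0.69 and 1.23 with MBD-TET1-CDwt, and 1.10 and 1.53 with MBD-TET1-CDmut. GRB10, an inhibitor of insulin and growth factor receptors, gave 2.93 and 2.47 with empty vector, 3.18 and 2.51 with TET1-CDwt, 2.70 and 2.79 with MBD-TET1-CDwt, and 2.77 and 2.80 with MBD-TET1-CDmut at its brighter probe. For neither gene did both MBD-TET1-CDwt clones lie outside the range of the other 6. DDC, the enzyme of dopamine and serotonin synthesis next to GRB10, gave -4.68 and -5.73 with empty vector, -3.93 and -6.42 with TET1-CDwt, -7.02 and -4.70 with MBD-TET1-CDwt, and -5.56 and -6.04 with MBD-TET1-CDmut. It was not well above background on 4 of the 8 arrays, among them MBD-TET1-CDwt #3, the lowest.

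In the KCNQ1 cluster the noncoding RNA KCNQ1OT1, which represses its neighbors from the paternal copy, was well above background on all arrays. It gave -2.92 and -0.88 with empty vector, -2.93 and -3.50 with TET1-CDwt, -1.43 and -2.23 with MBD-TET1-CDwt, and -3.13 and -2.67 with MBD-TET1-CDmut. Empty vector #2 was the highest, well apart from empty vector #1. KCNQ1OT1 was 2.49-fold lower with TET1-CDwt than with empty vector (limma adjusted p = 1.0), which was 1.23-fold without empty vector #2. It was 2.10-fold higher with MBD-TET1-CDwt than with MBD-TET1-CDmut (limma adjusted p = 0.798), whereas MBD-TET1-CDwt and empty vector differed by 0.07 (95% confidence interval -1.45 to 1.59), which was 1.09 without empty vector #2 and -0.95 without empty vector #1. The potassium channel gene KCNQ1 gave -2.30 and -1.82 with empty vector, -1.57 and -3.07 with TET1-CDwt, -2.79 and -2.16 with MBD-TET1-CDwt, and -1.51 and -1.80 with MBD-TET1-CDmut. PHLDA2, a maternally expressed brake on placental growth, gave 1.08 and 1.36 with empty vector, 1.22 and 1.82 with TET1-CDwt, 1.00 and 1.06 with MBD-TET1-CDwt, and 1.38 and 1.01 with MBD-TET1-CDmut. TET1-CDwt #5 was the lowest array for KCNQ1 and the highest for PHLDA2. ASCL2, a transcription factor of the trophoblast, gave -5.76 and -4.13 with empty vector, -3.72 and -6.12 with TET1-CDwt, -6.30 and -3.50 with MBD-TET1-CDwt, and -3.43 and -5.18 with MBD-TET1-CDmut. Its clones differed by more than 1 within each of the 4 constructs.

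At DLK1-DIO3, a cluster with protein-coding genes active on the paternal copy and noncoding RNAs on the maternal copy, the widest difference between MBD-TET1-CDwt and empty vector among the probes tested was that of DIO3. DIO3, which inactivates thyroid hormone, gave -4.91 and -4.72 with empty vector, -4.88 and -4.79 with TET1-CDwt, -4.19 and -2.94 with MBD-TET1-CDwt, and -4.08 and -4.88 with MBD-TET1-CDmut at its brighter probe. MBD-TET1-CDwt #10 stood highest, whereas #3 lay just below MBD-TET1-CDmut #9. The mean was 2.39-fold higher with MBD-TET1-CDwt than with empty vector, a log2 difference of 1.26 (SE 0.43, limma adjusted p = 0.691) and 0.63 without #10. Its dimmer probe was well above background on no array.
DLK1, a Notch-related inhibitor of fat cell formation, gave -3.66 and -3.53 with empty vector, -3.83 and -3.77 with TET1-CDwt, -3.42 and -3.42 with MBD-TET1-CDwt, and -3.66 and -3.66 with MBD-TET1-CDmut at its brighter probe. The 2 MBD-TET1-CDwt arrays were the highest, by 0.17 over empty vector on average (95% confidence interval -0.21 to 0.55). The dimmer DLK1 probe was well above background only in empty vector #1 (-4.68) and MBD-TET1-CDwt #10 (-4.41), and so disagreed with the brighter probe. MEG3, the maternal noncoding RNA of the cluster, was among the steadiest and gave 0.22 and 0.21 with empty vector, 0.10 and 0.31 with TET1-CDwt, 0.22 and 0.34 with MBD-TET1-CDwt, and 0.26 and 0.16 with MBD-TET1-CDmut. Its second probe (NR_003531) gave -4.00 and -3.83 with empty vector, -4.04 and -3.90 with TET1-CDwt, -3.61 and -3.57 with MBD-TET1-CDwt, and -3.99 and -3.74 with MBD-TET1-CDmut. The second probe was 0.32 higher with MBD-TET1-CDwt than with empty vector (95% confidence interval -0.11 to 0.75, limma adjusted p = 0.835). RTL1, a placental gene derived from a retrotransposon, was on no array well above background.

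The SNRPN cluster on chromosome 15 holds genes whose paternal loss gives Prader-Willi syndrome. NDN, a growth suppressor of postmitotic neurons from a single-exon gene, was marked well above background for MBD-TET1-CDwt #3 and no other clone. It gave -7.37 and -7.98 with empty vector, -7.97 and -7.63 with TET1-CDwt, -4.92 and -6.84 with MBD-TET1-CDwt, and -7.36 and -7.44 with MBD-TET1-CDmut. Both MBD-TET1-CDwt arrays lay above the other 6, yet only #3 passed the mark, and NDN was not tested because it was not well above background on both arrays of any construct. SNRPN, whose promoter is the control region of the cluster, was not well above background on any array (-8.05 to -7.12). The other listed genes of the cluster were well above background on every array. MAGEL2, a ubiquitin ligase partner, gave -3.57 and -3.92 with empty vector, -3.62 and -3.20 with TET1-CDwt, -2.94 and -4.16 with MBD-TET1-CDwt, and -4.02 and -3.68 with MBD-TET1-CDmut. The MBD-TET1-CDwt clones were the highest (#3) and the lowest (#10) of the 8. MKRN3, a RING finger protein that restrains the onset of puberty, gave -1.62 and -1.19 with empty vector, -2.21 and -0.66 with TET1-CDwt, -1.37 and -2.24 with MBD-TET1-CDwt, and -1.46 and -1.67 with MBD-TET1-CDmut. UBE3A, the maternally expressed ubiquitin ligase of Angelman syndrome, gave -0.57 and -0.62 with empty vector, -0.45 and -0.30 with TET1-CDwt, -0.05 and -0.65 with MBD-TET1-CDwt, and -0.55 and -0.44 with MBD-TET1-CDmut. MKRN3 and UBE3A, like MAGEL2, were higher in MBD-TET1-CDwt #3 than in #10.

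In the PEG3-ZIM2 cluster, zinc finger genes that share a promoter, signals were near the floor. PEG3 at its brighter probe gave -5.04 and -5.19 with empty vector, -6.39 and -5.99 with TET1-CDwt, -5.25 and -5.79 with MBD-TET1-CDwt, and -5.99 and -5.92 with MBD-TET1-CDmut, and was well above background with empty vector alone. The difference from empty vector was -1.08 with TET1-CDwt (SE 0.24, limma adjusted p = 1.0) and -0.41 with MBD-TET1-CDwt (SE 0.24, limma adjusted p = 0.857). ZIM2 gave -5.01 and -5.35 with empty vector, -5.66 and -5.92 with TET1-CDwt, -6.24 and -5.99 with MBD-TET1-CDwt, and -4.63 and -5.60 with MBD-TET1-CDmut. Neither MBD-TET1-CDwt clone was well above background, and both lay below the other 6. The difference was -0.93 from empty vector (limma adjusted p = 0.708) and -1.01 from MBD-TET1-CDmut (limma adjusted p = 0.643), and the values include signals below the floor. PEG3 and ZIM2 both entered the test through empty vector alone, so that a lower signal than with empty vector was favored by that choice.

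**Figure D3:**
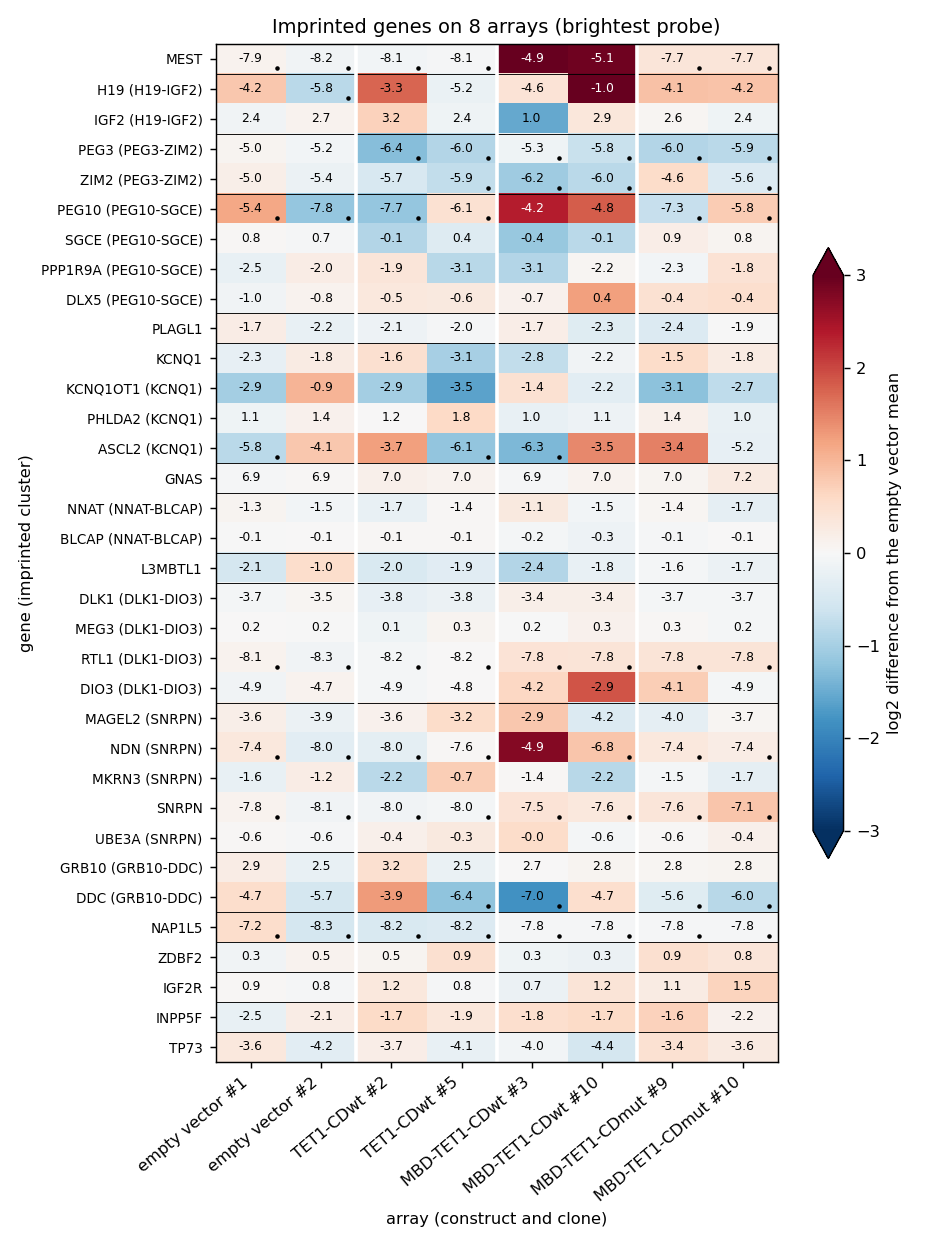
Signals of the 34 imprinted genes (rows, brightest probe, grouped by cluster) on the 8 arrays (columns). Numbers are log2 signals minus the 75th percentile of the array, colors are the difference from the mean of the 2 empty vector arrays, and a black dot marks a signal not well above background. MEST and PEG10 carry dots everywhere but with MBD-TET1-CDwt, and BLCAP, MEG3 and GNAS are nearly uncolored.

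Most of the imprinted genes were well above background whichever construct was carried, and so were most probes of the array. By probe, 31 of the 48 for imprinted genes were so on all 8 arrays, beside 20326 of all 34127 probes. With empty vector 26 of 34 genes were well above background on both arrays, 2 (H19 and ASCL2) on a single array and 6 on neither. Of all 27777 genes or accessions, 8534 were on neither empty vector array. For the imprinted genes the counts on both arrays were 24 with TET1-CDwt, 26 with MBD-TET1-CDwt and 25 with MBD-TET1-CDmut. On all 8 arrays it was 23 genes, and on none it was 3 (RTL1, SNRPN and NAP1L5). Shares of all genes are not given beside the counts on both arrays and on all 8. Of the 6 genes on neither empty vector array, 2 (MEST and PEG10) were well above background in both MBD-TET1-CDwt clones, where 0.691% of 8534 such genes were. With TET1-CDwt it was 0 of 6 (0.586% of such genes), and with MBD-TET1-CDmut 0 of 6 (0.176% of such genes). The other 4 were NDN, SNRPN, RTL1 and NAP1L5, a nucleosome assembly gene expressed from the paternal copy. The genes were chosen with earlier results of these arrays known, and the study's own list from them holds MEST. The 2 of 6 is thus not independent evidence about imprinted genes.
Among the genes on all arrays, 31 probes had a median span from the lowest to the highest array of 0.83, against 0.71 over 20326 such probes. Of these, 7 probes spanned less than 0.5, 22.6% against 23.9% of all. The steadiest was BLCAP, a bladder cancer associated gene, which spanned 0.19 and gave -0.10 and -0.09 with empty vector, -0.06 and -0.06 with TET1-CDwt, -0.16 and -0.25 with MBD-TET1-CDwt, and -0.14 and -0.08 with MBD-TET1-CDmut at its brighter probe. NNAT, a small membrane protein of the developing brain transcribed from within the BLCAP gene, spanned 0.54 and gave -1.33 and -1.51 with empty vector, -1.66 and -1.39 with TET1-CDwt, -1.14 and -1.52 with MBD-TET1-CDwt, and -1.36 and -1.69 with MBD-TET1-CDmut. Both genes of this pair were thus near their empty vector levels on every array. The stimulatory G protein gene GNAS spanned 0.30 at its brightest probe and gave 6.85 and 6.93 with empty vector, 7.04 and 7.00 with TET1-CDwt, 6.85 and 6.99 with MBD-TET1-CDwt, and 6.98 and 7.16 with MBD-TET1-CDmut. The GNAS probes named for the transcripts NM_016592 and NM_001077490 were well above background on no array.
PLAGL1, a zinc finger regulator of cell cycle arrest, spanned 0.65 and gave -1.72 and -2.18 with empty vector, -2.10 and -1.97 with TET1-CDwt, -1.75 and -2.31 with MBD-TET1-CDwt, and -2.36 and -1.95 with MBD-TET1-CDmut. ZDBF2, a paternally expressed zinc finger gene, also spanned 0.65 and gave 0.33 and 0.52 with empty vector, 0.52 and 0.91 with TET1-CDwt, 0.30 and 0.26 with MBD-TET1-CDwt, and 0.90 and 0.79 with MBD-TET1-CDmut. In ZDBF2, MBD-TET1-CDwt was the lowest group and its difference from MBD-TET1-CDmut was -0.57 (95% confidence interval -1.03 to -0.10, limma adjusted p = 0.664). INPP5F, a phosphoinositide phosphatase, spanned 0.91 at its brighter probe and gave -2.49 and -2.06 with empty vector, -1.70 and -1.94 with TET1-CDwt, -1.77 and -1.70 with MBD-TET1-CDwt, and -1.58 and -2.16 with MBD-TET1-CDmut. TP73, a p53 relative, spanned 0.98 and gave -3.57 and -4.22 with empty vector, -3.70 and -4.12 with TET1-CDwt, -3.99 and -4.42 with MBD-TET1-CDwt, and -3.44 and -3.64 with MBD-TET1-CDmut. For neither of these genes did both MBD-TET1-CDwt clones lie outside the range of the other 6. L3MBTL1, a chromatin reader, spanned 1.40 and gave -2.08 and -1.02 with empty vector, -2.02 and -1.89 with TET1-CDwt, -2.42 and -1.76 with MBD-TET1-CDwt, and -1.60 and -1.72 with MBD-TET1-CDmut. Its highest array was empty vector #2 at both of its probes.

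Gaps between clones of the same construct had a higher median over the imprinted probes than over all probes. The median gap between the clones was 0.29 with empty vector, 0.40 with TET1-CDwt, 0.54 with MBD-TET1-CDwt and 0.21 with MBD-TET1-CDmut. Over all probes tested it was 0.22, 0.26, 0.37 and 0.17. Gaps over 1 were seen for 7 of 39 imprinted probes with empty vector (17.9%, against 5.34% of all), 7 with TET1-CDwt (17.9%, against 5.69%), 8 with MBD-TET1-CDwt (20.5%, against 11.6%) and 2 with MBD-TET1-CDmut (5.13%, against 1.89%). ASCL2 was among them in all 4 constructs, and H19 and DDC with empty vector, TET1-CDwt and MBD-TET1-CDwt. Whether these gaps differ from those of other genes of like brightness was not tested.

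A further list of 72 imprinted genes and neighbors from the same clusters gave 55 genes with a probe, 24 of them well above background on all 8 arrays and 17 on none. Of their 40 probes tested, limma called 0 in each of the 4 comparisons. At an unadjusted p under 0.05 it gave 2 higher and 2 lower with MBD-TET1-CDwt against empty vector (6.6% of all probes in either direction). Against MBD-TET1-CDmut it gave 0 higher and 3 lower (6.84% of all probes). The genes at least 2-fold different were HM13 at a single one of its 4 probes (1.03 lower on the log2 scale with MBD-TET1-CDwt than with empty vector, limma adjusted p = 0.412), ZNF331 (1.46 lower with TET1-CDwt than with empty vector) and GDAP1L1 (1.36 lower with MBD-TET1-CDwt than with MBD-TET1-CDmut). HM13 is a signal peptide peptidase, and its other 3 probes were 0.37 to 0.40 lower. ZNF331 and GDAP1L1 each had a dim clone in the lower group.
No gene for a protein that keeps imprints passed the test. Of 21 imprint regulators, 20 had a probe, 14 were well above background on all 8 arrays and 5 on none. Of their 22 probes tested, limma called 0 in any comparison. At an unadjusted p under 0.05 it was also 0, where 2.5% to 6.84% of all probes passed by comparison. DNMT1 lay between 1.93 and 2.45, its partner UHRF1 between 2.10 and 2.47 at its brighter probe, and TRIM28, the corepressor of KRAB zinc finger proteins, between 3.67 and 4.28. ZFP57 was on no array well above background, whereas ZNF445, the other zinc finger protein known to guard imprints, lay between -0.43 and 0.42.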

How the data were processed

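RNA of 8 HEK293T clones, 2 for each of 4 constructs, was labeled with Cy3 and hybridized to 8 one-color Agilent 4x44K arrays. The authors deposited scanner files of intensity per spot, made with Agilent Feature Extraction (9.5.1 per the labels, 10.7.3.1 per the file headers), and a series table with the same processed intensity in all 44495 entries. In these deposited intensity values background is already subtracted and arrays are not yet scaled to each other.

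Spots marked as outliers were left out (213 to 269 per array), no spot was saturated, spots of a probe were averaged, and log2 was taken and the 75th percentile of each array (an intensity of 328 to 527) subtracted. A probe was well above background where more than 50% of its spots were so marked. Of 34127 probes, 25422 (74.5%) were given a current RefSeq symbol through their transcript. Group means were compared with limma 3.58.1 in R 4.3.3 over 8 arrays (4 residual degrees of freedom) and 22530 probes, with Benjamini-Hochberg adjustment over all of them and a threshold of 0.05. The fit was tested on simulated data. For fold changes, signals not well above background were raised to the lowest signal so marked on the array, and the brighter group had to be well above background on both arrays. A gene counted once if any of its probes passed. All listed genes are named, those well above background on both arrays of a construct with their values on each array. Of the further lists, those called or 2-fold different are named, beside a few genes chosen after their values were seen. The number of arrays limits the precision.

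The list of genes, the further lists and the tests were chosen with earlier results of these data known, and a list that the study itself drew from these arrays holds MEST. Alternatives were normexp background correction (with an offset of 50), quantile and median scaling, no filter on dim probes, other variance models, a 5-fold threshold and each clone left out. Slide could not be fitted beside construct. Promoter windows came from RefSeq (GRCh38.p14), and tables and plots were made with Python 3.11.15, pandas 2.3.3 and matplotlib 3.10.9. Where the probes lie in the genome was not used here.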

Additional observations from a re-analysis of the deposited data

How the results depend on the processing

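The MEST difference between MBD-TET1-CDwt and empty vector kept its sign and its call under median scaling, under quantile scaling (2.88) and with any clone left out (2.92 to 3.20, limma adjusted p from 0.00341 to 0.021). So did that from MBD-TET1-CDmut under median scaling (2.70), under quantile scaling (2.87) and with any clone left out (2.57 to 2.84, limma adjusted p from 0.00596 to 0.0374). The call was lost with a trend and robust variance model (3.06, adjusted p = 0.0996, and 2.71, adjusted p = 0.148), with the fit limited to the 2 groups (3.06, adjusted p = 0.0857, and 2.71, adjusted p = 0.0552) and with dim signals at the floor (0.92, adjusted p = 0.347, and 0.54, adjusted p = 0.677), and each of the first 2 settings left 0 imprinted probes called in both comparisons. The normexp correction, added after the data were seen because the files hold no mean signal and so run on the median signal, turned MEST to -1.02 (adjusted p = 0.476) and -0.54 (adjusted p = 0.968), turned the difference of MBD-TET1-CDmut from empty vector to -0.49, and called 0 imprinted probes in both comparisons. By its construction it moved the dim probes: their median was -0.15 on empty vector #2 and -1.08 on MBD-TET1-CDmut #10, against -3.25 to -2.67 on the other 6 arrays, and MEST lay 0.26 and 0.27 above the shift of the dim probes in the comparisons with empty vector and MBD-TET1-CDmut, where it lay 2.69 and 2.68 above it in the values of the report. The median of all probes tested also shifted under normexp, by -0.43 with TET1-CDwt, -0.38 with MBD-TET1-CDwt and -0.19 with MBD-TET1-CDmut. MEST with TET1-CDwt, with a value near 0, turned to 0.033 under median scaling, 0.0011 with dim signals at the floor and 0.0528 without empty vector #1 (range -0.18 to 0.0528 over the clones left out).

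The number of imprinted probes called with MBD-TET1-CDwt ranged from 1 to 2 with a clone left out, and it was 2, MEST and NDN, without MBD-TET1-CDwt #10, in both comparisons. NDN then entered the test only through clone #3, the single array on which it was well above background, so that its call follows from that choice. Genes at least 2-fold higher numbered 0 with MBD-TET1-CDwt, against empty vector and against MBD-TET1-CDmut alike, under normexp, at 5-fold, and where every array had to be 2-fold above every other. With TET1-CDwt they numbered 2 under normexp and 0 to 3 with a clone left out, and with MBD-TET1-CDmut 0 to 1. Genes at least 2-fold lower with TET1-CDwt numbered 13 under normexp, 2 with no floor, 0 at 5-fold, 0 by every array and 1 to 2 with a clone left out. With MBD-TET1-CDwt they numbered 7 under normexp and 0 to 3 with a clone left out, the highest without #10. With MBD-TET1-CDmut they numbered 1 under quantile scaling and 0 to 1 with a clone left out. Against MBD-TET1-CDmut those lower with MBD-TET1-CDwt numbered 0 under normexp, at 5-fold and by every array, and 0 to 5 with a clone left out, the highest without MBD-TET1-CDwt #10. Genes newly above background numbered 0 to 1 with TET1-CDwt and 0 to 1 with MBD-TET1-CDmut with a clone left out. Shares of all genes under these settings are not given, so the counts are not read as results about imprinted genes. Under normexp, TET1-CDwt against empty vector, where 13 were lower, had a median of -0.43 over all probes tested. Over the probes well above background on no array it was -1.67. Apart from the effect shown for normexp and the fewer arrays in the others, the cause was not tested. Where a clone was left out, the lone clone was assumed to vary like the other groups. The other 146 values of these results stayed on their side of the threshold or within 1.5 times the count. MEST has 1 probe, so a mean over probes is the same value, and normexp on mean signals was not run.

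Most MEST, PEG10 and NDN signals were not well above background, so that their changes are bounds. Slide and construct cannot be told apart in the comparisons of the fusions with empty vector. No paired analysis was possible because the clone numbers are names of unrelated clones and the groups compared share fewer than 2 of them.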

Other observations

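Some genes of the further lists, of imprinted genes and neighbors and of imprint regulators, were chosen here after their values were seen. MESTIT1, an antisense RNA of the MEST locus, was marked well above background at a single probe and only for clone MBD-TET1-CDwt #3 (-4.68, against -6.94 in #10 and -8.05 to -7.55 on the other 6 arrays), and its other probe was not on any array. DIRAS3, a paternally expressed inhibitor of the RAS family, was likewise so only for MBD-TET1-CDwt #3 (-4.35, against -8.10 to -6.73). SLC22A3, an organic cation transporter beside IGF2R, had the same pattern (-4.80, against -8.20 to -7.71). NDN, MESTIT1, DIRAS3 and SLC22A3 were thus all well above background in clone #3 and not in clone #10. The reverse held for a probe each of ASCL2, DDC, ZNF331, SGK2 and GDAP1L1, among others. Shares of all probes with either pattern are not given.

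KLF14, a single-exon gene near MEST that is expressed from the maternal copy, was well above background on 7 arrays (-4.97 to -4.70) and not in MBD-TET1-CDwt #3 (-7.54). CDKN1C, a cell cycle inhibitor of the KCNQ1 cluster, gave 0.23 for MBD-TET1-CDwt #3 and 2.02 for #10, the lowest and the highest of the 8 arrays, as IGF2 was lowest in #3. DLX6, the homeobox neighbor of DLX5, was 0.99 higher with MBD-TET1-CDwt than with empty vector (SE 0.25, limma adjusted p = 0.528), and both clones lay above the other 6. CTCFL, an imprint regulator related to the insulator protein CTCF and normally limited to the testis, was marked well above background for MBD-TET1-CDwt #10 alone (-4.18). It gave -5.09 without the mark in MBD-TET1-CDwt #3, and both clones lay above the other 6 arrays (-7.94 to -5.44). These values were not tested as patterns of a clone.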
